A study of Homo sapiens with 15 samples.

Results

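The genes SGPL1, RRP1B, IRS4, IGFBP5, HTRA1, LMBRD2, ADAM23 and CEP19 were followed across 5 siRNA treatments of HEK293T cells, an established human embryonic kidney line. They are 8 of the 14884 genes measured and were chosen by their measured Dcp2 minus non-silencing differences on these arrays, being named genes among the 10 largest falls that passed the test. The groups, with 3 arrays each, were Dcp2 siRNA, LOC550643 siRNA (a pool of 4 directed at the transcript of NoBody, a small protein of P-bodies), DcpS siRNA, GAPDH siRNA and non-silencing siRNA. All 15 samples, the non-silencing ones included, received actinomycin D at 1 ug/mL for 4 hours, starting 48 hours after transfection. In the study's design Dcp2 was the positive control, a decapping factor thought to act with NoBody, and DcpS and GAPDH were negative controls. The submitters remark that transcriptional responses were still seen in spite of the actinomycin D.

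Dcp2 removes the cap of mRNAs, after which the exonuclease XRN1 degrades them from the 5' end, and much of this machinery gathers in P-bodies. Actinomycin D stops transcription, so an mRNA level measured after it holds both the level reached before the block and the decay during it. These cannot be told apart here, and neither can a lower level in all cells of a culture and a loss from some of them. Loss of a decapping enzyme is known for stabilising mRNAs; the 8 genes are ones whose levels were instead lower.

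Levels are in log2 units, in which a step of 1 is a doubling, and each of the 8 genes was read by 1 probe set. The median of an array was between 4.01 and 4.08. DCP2 itself was at 6.34 ± 0.10 on the Dcp2 arrays and 8.14 ± 0.13 on the non-silencing arrays (SD, n = 3 each). It was 7.60 ± 0.27 with DcpS siRNA, 8.54 ± 0.13 with LOC550643 siRNA and 8.40 ± 0.12 with GAPDH siRNA. GAPDH was at 5.97 ± 0.24 with its own siRNA and 7.20 ± 0.10 with non-silencing siRNA, and the LOC550643 and DCPS transcripts were not analysed here. Of 7 markers listed for HEK293 cells 5 were measured, between 5.65 (PAX2) and 8.72 (KRT18) on average, where the median gene level was 5.47. Markers of other cell types averaged 2.39 to 5.15 for 3 fibroblast genes, with DCN lowest and THY1 highest, 3.23 to 3.74 for 3 endothelial genes and 3.49 to 5.31 for 3 hepatocyte genes, so that THY1, APOA1 (4.98) and TTR (5.31) came near the median gene. None of these 9 was called in Dcp2 minus non-silencing. The monocyte gene CD14 averaged 3.50. CD68, on the list of blood markers, was brighter, at 6.65, and was called higher with Dcp2 siRNA, by 0.47 (limma adjusted p = 0.0349). The summed log2 values of the 2 blood markers measured, CD68 and CD14, ran from 9.98 to 10.6 on the Dcp2 arrays and from 9.65 to 9.99 on the non-silencing arrays, they were highest on the GAPDH arrays, and their part in the results was not tested.

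The 8 genes are described in 3 patterns across the 5 siRNAs, a division that was not tested. RRP1B had means between 8.86 and 8.93 with all siRNAs but Dcp2. SGPL1, LMBRD2, CEP19, HTRA1 and ADAM23 were lowest with Dcp2 siRNA on every array, and their other group means lay further apart than those of RRP1B. For HTRA1 and ADAM23 the largest differences among LOC550643, DcpS and GAPDH were only 0.20 (SE 0.20) and -0.25 (SE 0.18). In IRS4 and IGFBP5, both of the insulin and IGF system, the Dcp2 arrays overlapped the DcpS arrays, and in IRS4 also the GAPDH arrays. IGFBP5 came close to its Dcp2 level with DcpS siRNA (Dcp2 minus DcpS -0.16). In IRS4 the overlap came from DcpS replicate 2 and GAPDH replicate 1, and Dcp2 differed by -0.52 from DcpS and -0.37 from GAPDH. In 6 of the 8 genes every Dcp2 array lay below all 12 other arrays, an arrangement found in 1.67% of all genes. Since the choice of genes already required low Dcp2 arrays, that share is given for scale and nothing is read from it.

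**Figure D1:**
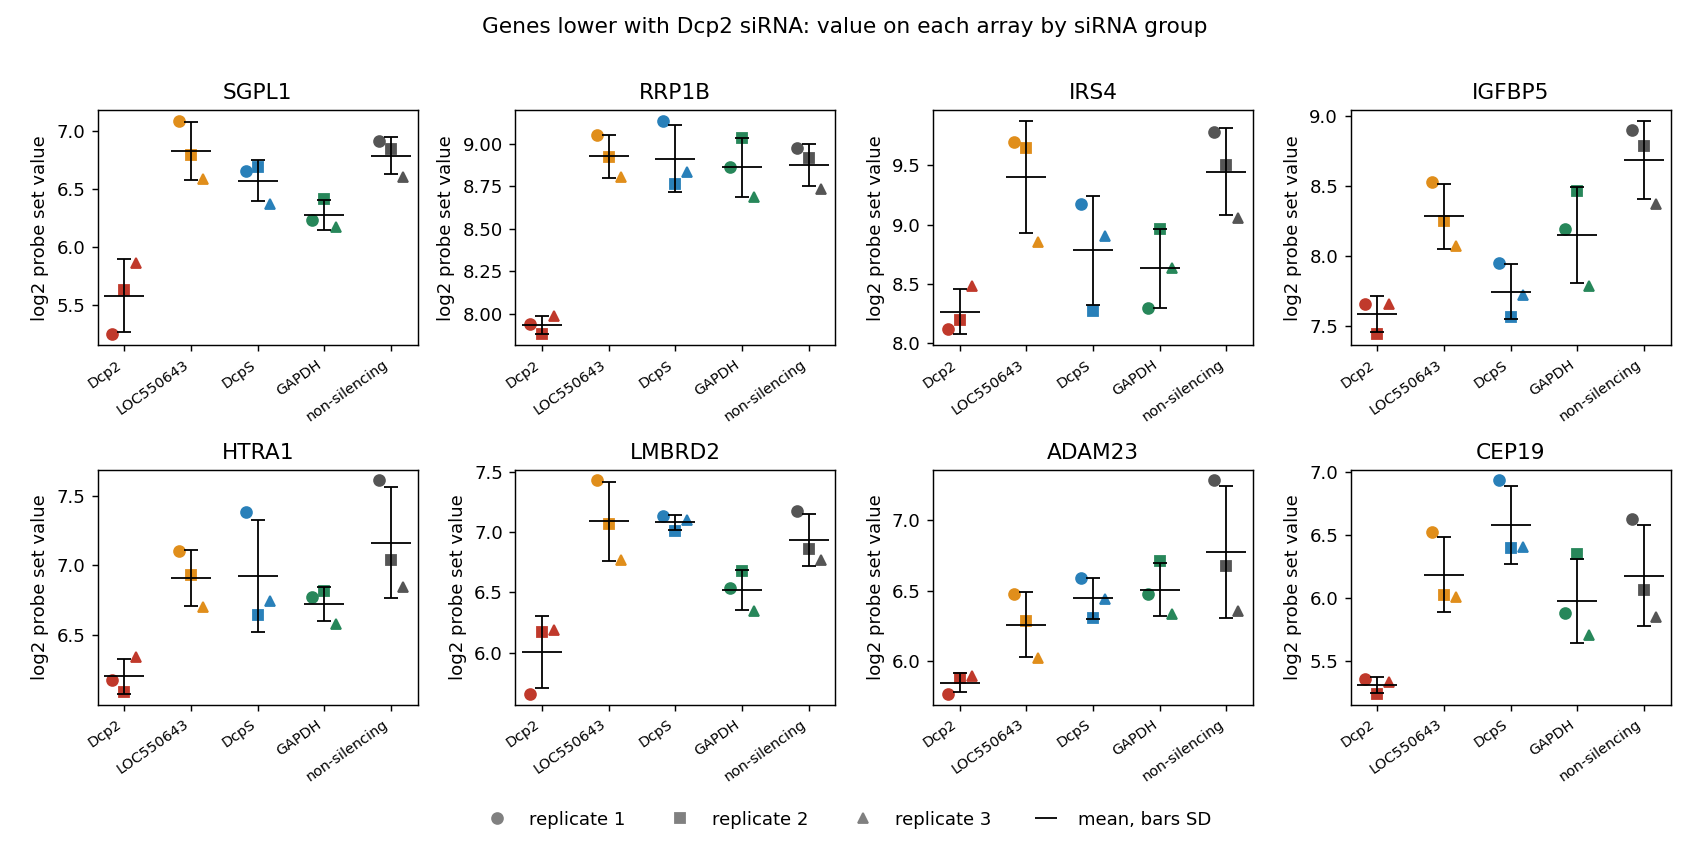
Log2 probe set value (vertical axis, a separate range in each panel) of the 8 genes on each of the 15 arrays, by siRNA group. Symbols mark the replicate number, horizontal lines the group mean and bars the SD (n = 3). The Dcp2 arrays of RRP1B end at 7.99, well under the lowest of the other 12 arrays at 8.69, whereas those of IRS4 and IGFBP5 overlap the DcpS arrays.

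The RefSeq table of windows around gene starts, which run from 250 bases before to 50 after the start (build GRCh38.p14), held 7 of the 8 genes and was not matched by RRP1B. IRS4 had 2 windows, which overlap each other, and this made 8 in all. The windows shown are those of the 3 genes with the largest difference between Dcp2 and the mean of the other 3 targeting siRNAs among the genes with a window, and that of IGFBP5, the gene with the smallest. Capitals mark matches on either strand to the GC box core GGGCGG, the CCAAT box CCAAT and the ETS core CGGAAG.
SGPL1, chr10:70815698-70815997, plus strand: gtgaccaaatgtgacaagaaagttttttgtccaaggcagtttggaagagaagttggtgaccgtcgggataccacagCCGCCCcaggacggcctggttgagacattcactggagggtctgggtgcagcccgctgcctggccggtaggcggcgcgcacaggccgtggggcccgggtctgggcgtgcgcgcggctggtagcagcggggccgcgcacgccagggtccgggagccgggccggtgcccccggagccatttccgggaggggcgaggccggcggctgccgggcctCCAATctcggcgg
LMBRD2, chr5:36151838-36152137, minus strand: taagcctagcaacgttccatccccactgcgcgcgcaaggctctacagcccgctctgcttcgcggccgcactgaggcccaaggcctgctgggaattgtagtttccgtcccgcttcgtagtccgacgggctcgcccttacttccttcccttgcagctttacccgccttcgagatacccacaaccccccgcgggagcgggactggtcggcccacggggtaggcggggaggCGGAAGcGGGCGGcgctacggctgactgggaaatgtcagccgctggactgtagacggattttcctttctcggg
CEP19, chr3:196712201-196712500, minus strand: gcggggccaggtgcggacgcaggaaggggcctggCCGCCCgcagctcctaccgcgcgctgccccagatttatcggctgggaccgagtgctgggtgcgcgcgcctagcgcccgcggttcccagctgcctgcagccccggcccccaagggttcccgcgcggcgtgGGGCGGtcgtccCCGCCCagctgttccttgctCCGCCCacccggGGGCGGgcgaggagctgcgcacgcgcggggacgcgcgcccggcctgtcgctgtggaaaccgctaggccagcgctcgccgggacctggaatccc
IGFBP5, chr2:216695500-216695799, minus strand: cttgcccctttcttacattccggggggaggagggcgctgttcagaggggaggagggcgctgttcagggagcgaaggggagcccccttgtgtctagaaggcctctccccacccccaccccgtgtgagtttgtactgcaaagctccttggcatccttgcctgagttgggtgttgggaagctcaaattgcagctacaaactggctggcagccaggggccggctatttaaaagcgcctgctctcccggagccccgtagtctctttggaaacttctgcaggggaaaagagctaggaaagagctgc

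GGGCGG, the letters bound by SP1-type factors, was present in 7 of the 8 windows, with 5 matches each in CEP19 and HTRA1 and 0 in IGFBP5, and in 45.0% of all 35116 windows. CCAAT was in 2 windows (SGPL1 and HTRA1), against 34.6% of all windows, CGGAAG in 1 (LMBRD2), against 19.5%, and the E-box CACGTG in 1 (the second IRS4 window), against 7.26%. TATAAA and the AP-1 letters TGANTCA were in 0 of 8 windows, against 11.5% and 7.71% of all windows. In LMBRD2 the CGGAAG and GGGCGG matches lie 1 base apart and do not overlap. The windows were rich in G and C, between 59.0% (IGFBP5) and 80.7% (HTRA1), with a median over all windows of 58.7%. The shares over all windows were not matched for this content, and the overlapping IRS4 windows are not separate counts. These matches describe letters only.

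RRP1B encodes a nucleolar protein of ribosomal RNA processing that also binds protein phosphatase 1. It was at 7.94, 7.88 and 7.99 on the Dcp2 arrays, against 8.98, 8.92 and 8.74 on the non-silencing arrays. With the other targeting siRNAs it was at 9.05, 8.93 and 8.80 (LOC550643), 9.14, 8.76 and 8.84 (DcpS) and 8.86, 9.04 and 8.69 (GAPDH). The 4 groups other than Dcp2 overlapped one another, and their means lay between 8.86 and 8.93. The difference of Dcp2 from non-silencing was -0.94 (SE 0.12), which left 52.1% of the level. It was -0.99 from LOC550643, -0.98 from DcpS and -0.93 from GAPDH (SE 0.12 each), so the gap had nearly one size whichever group was the comparison. The gap between the highest Dcp2 array and the lowest of the other 12 was 0.70, the widest of the 8 genes.

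SGPL1 encodes sphingosine-1-phosphate lyase, the endoplasmic reticulum enzyme that splits sphingosine-1-phosphate for good and so ends sphingolipid breakdown. Its Dcp2 arrays stood at 5.25, 5.63 and 5.87, against 6.91, 6.84 and 6.60 with non-silencing siRNA. Its values were 7.08, 6.79 and 6.59 with LOC550643 siRNA, 6.65, 6.69 and 6.37 with DcpS siRNA and 6.23, 6.42 and 6.17 with GAPDH siRNA. Every Dcp2 array was lower than every other array, and every GAPDH array was lower than every non-silencing array, while the GAPDH and DcpS arrays overlapped. The Dcp2 arrays spread more than those of RRP1B, with an SD of 0.31. Dcp2 differed from non-silencing by -1.20 (SE 0.16), leaving 43.4%. From LOC550643, DcpS and GAPDH it differed by -1.24, -0.99 and -0.69 (SE 0.16 each).

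LMBRD2, a membrane protein with an LMBR1-like domain, was likewise lowest with Dcp2 siRNA and next lowest with GAPDH siRNA. The Dcp2 arrays were at 5.66, 6.17 and 6.19, against 7.18, 6.86 and 6.77 on the non-silencing arrays. LOC550643 arrays were at 7.43, 7.07 and 6.77, DcpS arrays at 7.13, 7.01 and 7.10, and GAPDH arrays at 6.54, 6.68 and 6.34. The Dcp2 group lay lowest without overlap and the GAPDH group next, also below every array of the remaining 3 groups, which overlapped one another. The differences of Dcp2 were -0.93 from non-silencing, -1.08 from both LOC550643 and DcpS, and -0.52 from GAPDH (SE 0.17 each).

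CEP19 encodes a protein of the centrosome and of the base of the cilium, where it takes part in recruiting the GTPase RABL2B. With Dcp2 siRNA it was at 5.35, 5.24 and 5.33, against 6.62, 6.06 and 5.85 with non-silencing siRNA. It was at 6.53, 6.02 and 6.01 with LOC550643 siRNA, at 6.93, 6.40 and 6.40 with DcpS siRNA, and at 5.88, 6.35 and 5.70 with GAPDH siRNA. The Dcp2 arrays were the lowest and close together (SD 0.06), whereas the SDs of the other groups ran from 0.30 to 0.40. The DcpS mean was the highest of the 5, at 6.58. The difference of Dcp2 was accordingly largest from DcpS, at -1.27, against -0.88 from LOC550643, -0.67 from GAPDH and -0.87 from non-silencing (SE 0.21 each).

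HTRA1 is a secreted serine protease that cleaves matrix proteins and IGF-binding proteins, IGFBP5 among them. It was at 6.18, 6.09 and 6.34 on the Dcp2 arrays, against 7.61, 7.04 and 6.84 on the non-silencing arrays. It was at 7.10, 6.93 and 6.70 with LOC550643 siRNA, 7.39, 6.64 and 6.74 with DcpS siRNA and 6.77, 6.81 and 6.58 with GAPDH siRNA. Dcp2 was lowest on every array, and the other groups overlapped their neighbours in the order of means, which ran GAPDH, LOC550643, DcpS and non-silencing. Its differences were -0.71 from LOC550643, -0.72 from DcpS, -0.52 from GAPDH and -0.96 from non-silencing (SE 0.20 each).

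ADAM23 belongs to the disintegrin and metalloprotease family but lacks protease activity, and it acts in cell adhesion and as a receptor of LGI1 in the nervous system. Its values were 5.77, 5.88 and 5.90 with Dcp2 siRNA, against 7.28, 6.68 and 6.36 with non-silencing siRNA. They were 6.48, 6.29 and 6.02 with LOC550643 siRNA, 6.59, 6.30 and 6.44 with DcpS siRNA, and 6.48, 6.71 and 6.33 with GAPDH siRNA. The Dcp2 group did not overlap the others, but it came within 0.12 of the lowest LOC550643 array, the narrowest such gap among the 6 separated genes. Replicate 1 of the non-silencing group was the highest of the 15 arrays. The differences of Dcp2 were -0.41 from LOC550643, -0.60 from DcpS, -0.66 from GAPDH and -0.92 from non-silencing (SE 0.18 each), and the last was -0.67 without non-silencing replicate 1.

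IRS4 is a docking protein that carries signals from the insulin and IGF-1 receptors and was first isolated from HEK293 cells. It was at 8.12, 8.19 and 8.48 on the Dcp2 arrays, against 9.78, 9.50 and 9.05 on the non-silencing arrays. It stood at 9.70, 9.65 and 8.85 with LOC550643 siRNA, at 9.17, 8.27 and 8.90 with DcpS siRNA, and at 8.30, 8.96 and 8.63 with GAPDH siRNA. The Dcp2 arrays were low but not alone, since DcpS replicate 2 and GAPDH replicate 1 lay below the highest of them. The GAPDH arrays also lay below every non-silencing array. Dcp2 differed by -1.13 from LOC550643 and -1.18 from non-silencing, but by -0.52 from DcpS and -0.37 from GAPDH (SE 0.26 each).

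IGFBP5 is a secreted protein that binds IGFs and sets how much of them reaches the receptor. Its Dcp2 arrays were at 7.65, 7.44 and 7.66, against 8.90, 8.79 and 8.37 for non-silencing siRNA. LOC550643 arrays were at 8.53, 8.25 and 8.07, DcpS arrays at 7.95, 7.56 and 7.72, and GAPDH arrays at 8.19, 8.47 and 7.79. The Dcp2 and DcpS arrays overlapped, and both groups lay wholly below the non-silencing arrays. The difference of Dcp2 from DcpS was -0.16, within 1 SE (0.18), while it was -0.70 from LOC550643, -0.57 from GAPDH and -1.10 from non-silencing (SE 0.18 each). Of the 8 genes, IGFBP5 was the one that DcpS siRNA held nearly as low as Dcp2 siRNA, with a DcpS minus non-silencing difference of -0.94.

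**Figure D2:**
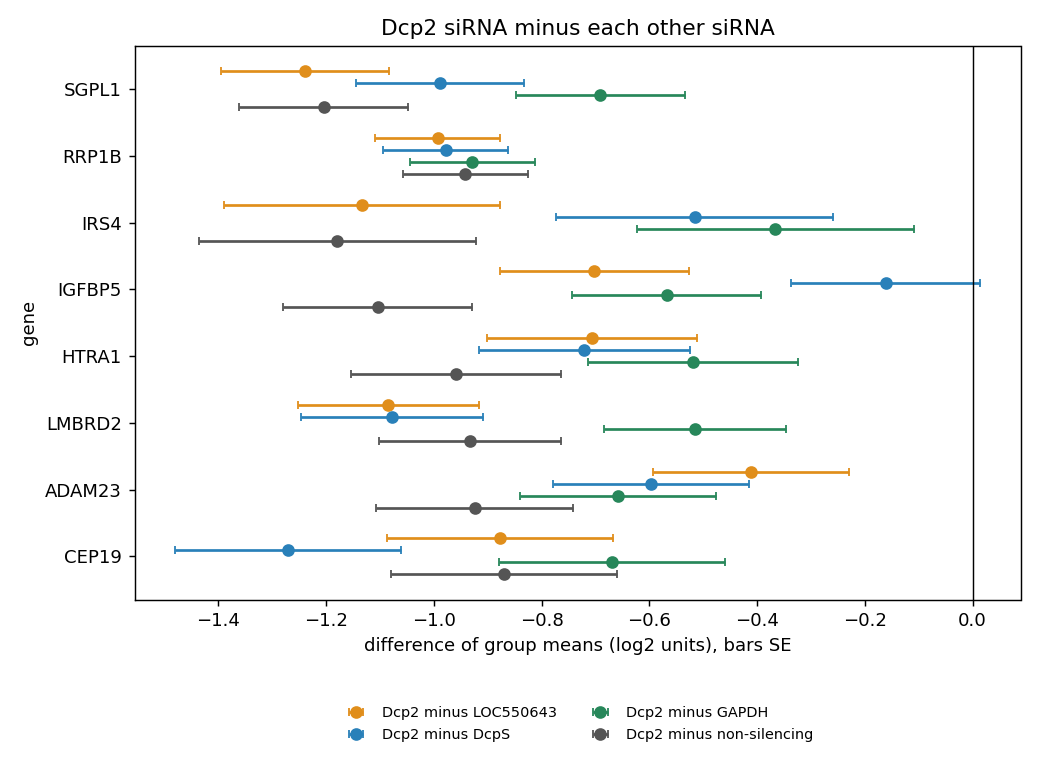
Difference of group means, Dcp2 siRNA minus each of the other 4 siRNAs (horizontal axis, log2 units), for the 8 genes; points are the fitted differences and bars the SE of the limma fit over 15 arrays. The points of RRP1B lie together between -0.99 and -0.93, whereas those of IGFBP5 spread from -1.10 to -0.16.

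Counted over the 8 genes, every Dcp2 array lay below every LOC550643 array in 8 genes (11.6% of all genes do so), below every GAPDH array in 7 (10.0%), all but IRS4, and below every DcpS array in 6 (12.7%), all but IRS4 and IGFBP5. Against non-silencing the count of 8 (11.3% of all genes) was fixed by the choice. These comparisons use the Dcp2 arrays that chose the genes, and the values serve as description. The median difference of the 8 genes was -0.94 from LOC550643, -0.85 from DcpS and -0.61 from GAPDH, where the median of all genes was 0.01 from LOC550643 and 0.0061 from DcpS. With LOC550643 siRNA 0 of the 8 genes lay wholly below non-silencing (8.40% of all genes do), with DcpS siRNA 1, IGFBP5 (9.20%), and with GAPDH siRNA 4, SGPL1, IRS4, HTRA1 and LMBRD2 (8.80%). The GAPDH minus non-silencing differences of those 4 were -0.51, -0.81, -0.44 and -0.42. All 4 comparisons share the non-silencing arrays, which also chose the genes. The choice favoured genes that read high on those arrays, which tilts the counts of 0, 1 and 4. Those counts serve as description and are not read as a result.

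The levels on the LOC550643, DcpS and GAPDH arrays did not enter the differences that chose the genes, and the 3 comparisons among them were tested. These arrays did enter the choice through the spread estimated over all 15 arrays, so the tests are not wholly independent of it. For a fall of a given size, passing was easier with a small spread, whereas taking the largest falls favours a large one. The SEs of the 8 genes ran from 0.12 (RRP1B) to 0.26 (IRS4), and a larger SE makes a call less likely for the same difference. In limma's moderated test, adjusted by Benjamini-Hochberg over 14884 genes, 0 of the 8 genes passed an adjusted p of 0.05 in LOC550643 minus DcpS, where 6.40% of all genes did. Of the 8 genes, 2 had an unadjusted p under 0.05 there. IGFBP5 came nearest, averaging 8.28 ± 0.23 with LOC550643 siRNA and 7.74 ± 0.20 with DcpS siRNA (SD, n = 3 each), a difference of 0.54 (SE 0.18, limma adjusted p = 0.0832) without overlap of the arrays. In LOC550643 minus GAPDH 0 of 8 passed, against 4.08% of all genes, with 3 at an unadjusted p under 0.05. SGPL1 was nearest there, higher by 0.55 (SE 0.16, limma adjusted p = 0.0636) with all 3 LOC550643 arrays above all 3 GAPDH arrays. In DcpS minus GAPDH 0 of 8 passed, against 5.98%, again with 3 at an unadjusted p under 0.05, and LMBRD2 was nearest, higher by 0.56 (SE 0.17, limma adjusted p = 0.0625). The share of all genes at an unadjusted p under 0.05 was not computed, so the counts of 2, 3 and 3 are not read as a result. A p that misses the threshold does not show equal levels. Some of these genes were called under other settings. Without LOC550643 replicate 3, SGPL1, IRS4 and LMBRD2 were called in LOC550643 minus GAPDH, where 3.10% of all genes were. With only genes of mean 5 or more tested, IGFBP5 was called in LOC550643 minus DcpS (14.3% of those genes), SGPL1 and LMBRD2 in LOC550643 minus GAPDH (9.91%) and LMBRD2 in DcpS minus GAPDH (13.2%). RRP1B was called in none of the 3 comparisons under any setting tried, with differences of 0.01, 0.06 and 0.05 (SE 0.12 each).

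The 8 genes also moved together between arrays of the same group. All 8 were highest on replicate 1 and lowest on replicate 3 in both the LOC550643 and the non-silencing group. In the GAPDH group all 8 were highest on replicate 2, in the DcpS group 7 were highest on replicate 1, and in the Dcp2 group 7 were highest on replicate 3. After group means were removed, the correlation over the 15 arrays between members of the 28 gene pairs ran from 0.52 to 0.94 with a median of 0.76. The arrays share their normalization and the shared axis described next, so this is a description with no test.

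The arrays differed within groups along a shared axis, the first principal component of all genes except these 8 after removal of group means, which held 24.7% of the within-group variance. The sign of its score is arbitrary. In each of the 5 groups the array with the lowest score was the one on which most of the 8 genes were highest. Those scores were 3.92 (Dcp2 replicate 3), -5.35 (LOC550643 replicate 1), -16.7 (DcpS replicate 1), -11.5 (GAPDH replicate 2) and -20.1 (non-silencing replicate 1). The group means of the score were 7.42 for Dcp2, 1.15 for LOC550643, -2.75 for DcpS, -0.25 for GAPDH and -5.59 for non-silencing, so the axis also ran from Dcp2 to non-silencing.

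With the score as a covariate, the Dcp2 minus non-silencing differences of all 8 genes stayed negative and kept between 60.6% (CEP19) and 86.0% (SGPL1) of their size. SGPL1 was at -1.04 (SE 0.15), RRP1B at -0.78 (SE 0.08), IGFBP5 at -0.84 (SE 0.12), IRS4 at -0.82 (SE 0.20), and CEP19 at -0.53 (SE 0.12). Dcp2 minus DcpS for IGFBP5 changed sign, to 0.04 (SE 0.12), and that for IRS4 was -0.24 (SE 0.19). Dcp2 minus GAPDH for IRS4 came to -0.16 (SE 0.19), within 1 SE of 0. The differences of HTRA1 from DcpS (-0.47, SE 0.11), GAPDH (-0.33, SE 0.10) and non-silencing (-0.64, SE 0.11) and that of ADAM23 from DcpS (-0.38, SE 0.11) kept between 62.9% (ADAM23) and 66.6% (HTRA1 from non-silencing) of their size. Without non-silencing replicate 1, the array farthest out on the axis, SGPL1 was at -1.14, RRP1B at -0.89, HTRA1 at -0.74 and CEP19 at -0.65 against non-silencing. The score takes part of a difference between groups with it, so the siRNA and the difference between arrays cannot be told apart by it.

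**Figure D3:**
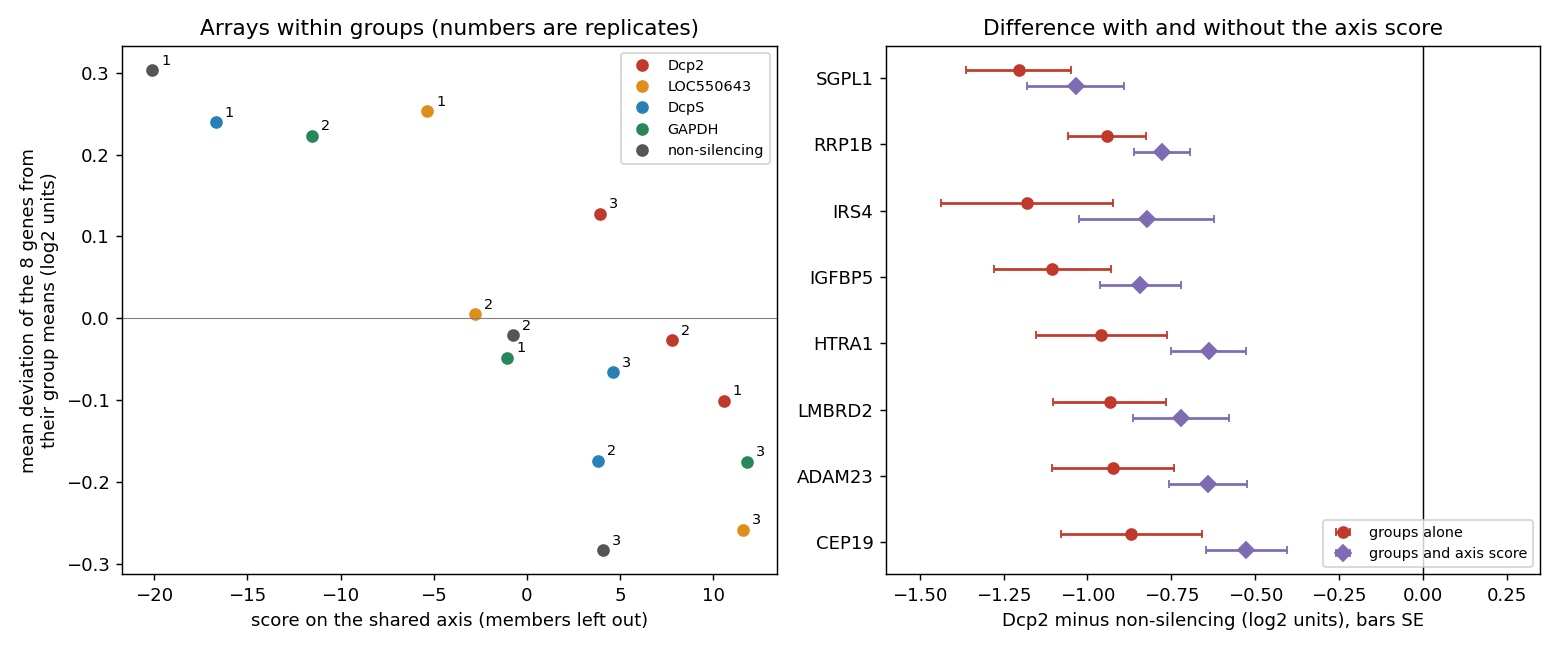
Left, the score of each array on the shared axis (horizontal, arbitrary units) and the mean deviation of the 8 genes from their group means (vertical, log2 units); numbers are replicates. Right, Dcp2 minus non-silencing differences (log2 units, bars SE) from the fit with groups alone and with the axis score added. Non-silencing replicate 1 has the lowest score, -20.1, and the highest deviation, 0.30; all 8 differences stay below 0 with the score added.

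Genes that work beside the 8 were read from 7 lists, of which 155 of 229 genes were measured. With Dcp2 siRNA against non-silencing, 6 of the 155 were called (limma, adjusted p under 0.05 over all genes), 4 lower and 2 higher, where 1.98% of all genes were called, 0.927% lower and 1.05% higher. DCP2, the siRNA's own target, is among the 6. Of the 155 genes, 40 had an unadjusted limma p under 0.05. The share of all genes at that threshold was not computed, so the unadjusted counts given below are not read as a result. Of all genes, 49.7% had a negative difference. Every Dcp2 array lay below all 12 others for 6 of the 155, DCP2, XRN1, MTOR, GRB14, RECK and ACER2, with the same 1.67% of all genes as scale.

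Of 26 measured genes of sphingolipid metabolism around SGPL1, 0 were called by limma (8 at an unadjusted p under 0.05), 17 had positive differences, and the median was 0.04, against 0.0013 for all genes. The kinase gene SPHK1, whose product makes the substrate of SGPL1, was at 0.23 (SE 0.10) and the phosphatase gene SGPP1, whose product turns it back to sphingosine, at 0.23 (SE 0.09). ACER2, an alkaline ceramidase gene, had the lowest difference, -0.43 (SE 0.11, limma adjusted p = 0.0604). Among 29 genes of the nucleolus and ribosome assembly 1 was called, higher, and the median was 0.02. It was NOLC1, a nucleolar phosphoprotein, at 8.95, 8.90 and 8.94 on the Dcp2 arrays, against 7.92, 7.85 and 8.04 on the non-silencing arrays, a difference of 0.99 (SE 0.08, limma adjusted p = 8.44e-06). Its Dcp2 level was near those with LOC550643 siRNA (Dcp2 minus LOC550643 0.09) and DcpS siRNA (Dcp2 minus DcpS -0.03). The GAPDH arrays lay between, at 8.32, 8.23 and 8.34 (Dcp2 minus GAPDH 0.64). The non-silencing arrays of NOLC1 were thus below those of every targeting siRNA. RRP1, the paralogue of RRP1B, was at 0.16 (SE 0.09).

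Of 31 measured genes of insulin and IGF signalling 0 were called higher and 2 lower, with a median of -0.00068. MTOR, the kinase of growth control, was at 6.98, 7.18 and 7.06 on the Dcp2 arrays, against 7.83, 7.70 and 7.51 on the non-silencing arrays, a difference of -0.61 (SE 0.13, limma adjusted p = 0.0256). It was lower than on all 12 other arrays, by -0.63, -0.60 and -0.53 from LOC550643, DcpS and GAPDH. GRB14, an adaptor that inhibits the insulin receptor, was at 5.76, 5.76 and 5.88 on the Dcp2 arrays, against 6.76, 6.23 and 6.14 on the non-silencing arrays, a difference of -0.58 (SE 0.12, limma adjusted p = 0.0295), of which -0.39 was left without non-silencing replicate 1. From LOC550643, DcpS and GAPDH it differed less, by -0.19, -0.23 and -0.22. Its highest Dcp2 array (5.882) lay only just below LOC550643 replicate 3 (5.887). The other insulin receptor substrates, IRS1 (0.10, SE 0.11) and IRS2 (0.05, SE 0.14), and IGFBP4 (0.06, SE 0.10) were not called.

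Among 19 HtrA, ADAM and related genes 1 was called, the metalloprotease inhibitor TIMP3, higher by 0.44 (SE 0.09, limma adjusted p = 0.0291). That call rests on its brighter probe set, since with the mean of its probe sets the difference was 0.06 (limma adjusted p = 0.776). HTRA2, the mitochondrial relative of HTRA1, was at -0.20 (SE 0.15) and ADAM22, a relative of ADAM23 that also binds LGI1, at -0.33 (SE 0.12). RECK, a membrane-anchored inhibitor of metalloproteases, was at -0.57 (SE 0.17, limma adjusted p = 0.0880) and lay -1.07 from DcpS. Of 4 LMBR1-family and adrenergic receptor genes 0 were called by limma, with 0 at an unadjusted p under 0.05. LMBR1 was at -0.20 (SE 0.12) and LMBRD1, a lysosomal cobalamin exporter component, at -0.05 (SE 0.11).

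Cilium assembly, around CEP19, had 0 of 35 measured genes called by limma (10 at an unadjusted p under 0.05). The differences were negative in 25 of the 35, against 49.7% of all genes, with a median of -0.08. The intraflagellar transport gene IFT172 was lowest, at -0.61 (SE 0.16, limma adjusted p = 0.0588), and the CEP19 partners CEP43 and CEP350 were at -0.04 (SE 0.10) and 0.28 (SE 0.15). In decapping and 5' decay, 2 of 11 measured genes were called, both lower, DCP2 and XRN1. XRN1, the exonuclease, was at 7.12, 7.18 and 7.31 on the Dcp2 arrays, against 7.57, 7.79 and 7.53 on the non-silencing arrays, a difference of -0.43 (SE 0.10, limma adjusted p = 0.0372). Its 3 GAPDH arrays and DcpS replicate 3 held an identical value, 7.53, and GRB14 held an identical value on its 3 DcpS arrays, 6.04. Identical values on all 3 arrays occurred in at least 1 group for 154 of the 14884 genes and for 0 of the 8. Between groups, LMBRD2 held an identical value, 6.77, on LOC550643 replicate 3 and non-silencing replicate 3.

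The calls of MTOR, GRB14 and XRN1 were each lost when any single Dcp2 array, or non-silencing replicate 1 or 2, was left out (limma adjusted p up to 0.125, 0.109 and 0.147), and that of TIMP3 in 4 of the 6 fits that leave out an array, all but those without Dcp2 replicate 2 and without non-silencing replicate 3 (up to 0.137). With the axis score as a covariate the limma adjusted p was 0.0626 for MTOR, 0.0927 for GRB14, 0.0740 for TIMP3 and 0.107 for XRN1, so these 4 calls were lost there too. NOLC1 and DCP2 kept theirs in all 6 fits without an array and with the score.

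**Figure D4:**
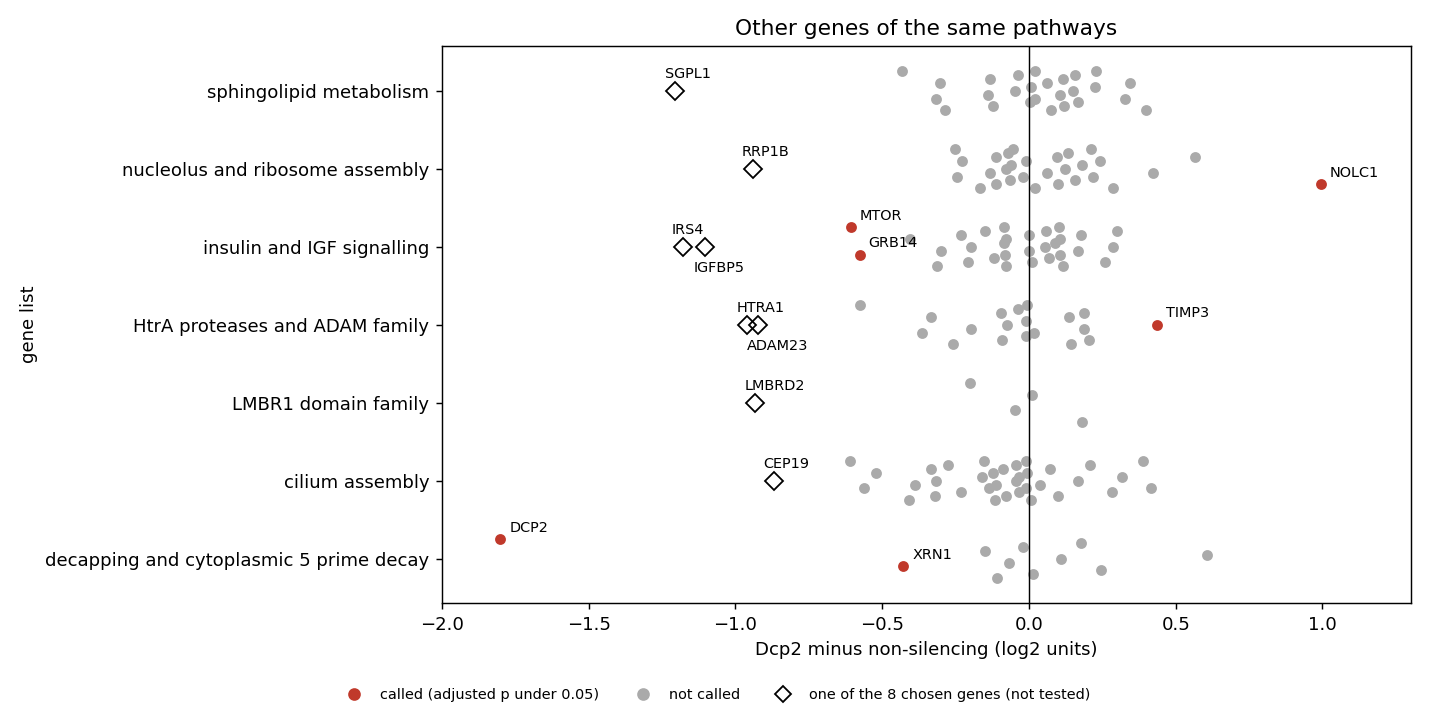
Dcp2 minus non-silencing difference (horizontal axis, log2 units) of the 155 measured genes of 7 lists, 1 point a gene, with called genes in red and named; open diamonds are the 8 chosen genes, which were not tested. The diamonds lie between -1.20 and -0.87, while the uncalled genes of the lists lie between -0.61 and 0.61.

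Some genes followed a similar course over the 15 arrays. Among genes with a mean of at least 5, the 8 themselves left out, those with the highest Pearson correlation were CFAP263 (0.96) and LMLN (0.96) for CEP19, PIEZO1 (0.95) and MTMR1 (0.93) for RRP1B, FBN1 (0.92) and MBTD1 (0.91) for SGPL1, and MBTD1 (0.94) and PBX3 (0.93) for LMBRD2. For IRS4 they were CFAP119 (0.94) and MSH5 (0.93), for HTRA1 REEP6 (0.94) and VPS52 (0.94), for ADAM23 TCF25 (0.93) and CUL9 (0.92), and for IGFBP5 TRIM25 (0.90) and FADS1 (0.90). MBTD1 thus stood near both SGPL1 and LMBRD2, which were themselves correlated at 0.94, and its own difference, Dcp2 minus non-silencing, was -0.68. These are the highest of many correlations, they rest on the same arrays and the same axis, and no test was made.

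At the edge of the choice, CEP19 was the last gene taken, at -0.87, and ERO1B (-0.85, SE 0.12) and BCL2 (-0.84, SE 0.11) were the next called lower genes. Above that edge stood also DCP2 and the noncoding LINC00294 (-0.98), which are not among the 8.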

How the data were processed

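RNA of 15 HEK293T samples was measured on Affymetrix whole-transcript arrays. The deposited values were log2 probe set summaries, made with RMA and oligo, per the submitters' processing notes; the base was inferred from the range, and the versions, the probe set definition and the build are not given in the sources used here. RMA includes quantile normalization, after which a shift of all transcripts cannot be seen. Precision is limited by having 3 arrays per group, and no detection calls were applied.

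Of 53617 probe sets, 16098 had 1 gene symbol in GEO's platform annotation, 0 had several and 37519 had none. Symbols were updated through RefSeq gene records (16098 matched). The probe set with the highest mean stood for a gene, leaving 14884 genes. limma 3.58.1 in R 4.3.3 fitted 1 mean per group to all 15 arrays (10 residual degrees of freedom). P-values were two-sided and adjusted by Benjamini-Hochberg over all genes within a comparison, and a call is an adjusted p under 0.05. No p is given for the 8 genes where the Dcp2 or non-silencing arrays, which chose them, enter. The labels do not say whether replicates were separate cultures, and the spread behind each p-value may therefore be technical alone.

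The 8 genes and the lists were chosen with earlier results of these data known. Named genes were the 8, the targets, the called genes of each list (at most 4 a list), fixed close relatives, the next 2 called lower genes, and 2 correlated genes for each of the 8; ACER2, RECK, IFT172, LINC00294 and the markers named were picked after their values were seen. On simulated data for LOC550643 minus DcpS over 14884 genes the fit recovered 98% of genes changed by 1 and 48% of those changed by 0.5 log2 units. The simulated noise was drawn independently for each gene and array, without the shared axis. The share of genes changed was also smaller than the 6.40% of all genes called in this comparison on the real arrays. For both reasons these rates need not hold for the real arrays. Correlations of same-numbered deviations ran from -0.20 to 0.39 and were over 0.1 in 9 of 30. All 3 passed in 1 of 10 comparisons, DcpS minus non-silencing, for which no test is given here, and the replicate numbers were not taken as pairing the arrays of the others. Alternatives were the axis score, the replicate block, a filter on dim genes, further quantile normalization, centring on medians, the mean of probe sets, fitting the compared arrays alone and leaving out each array. For a tested comparison only arrays of the groups compared were left out.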

Additional observations from a re-analysis of the deposited data

How the results depend on the processing

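The 8 genes' differences, Dcp2 minus non-silencing and Dcp2 minus the mean of the other 3 targeting siRNAs, were below 0 in 256 of 256 refits, and 250 moved by less than the spread between replicates. The 6 that moved further came with the axis score as a covariate: against non-silencing RRP1B (-0.78), IRS4 (-0.82), IGFBP5 (-0.84), HTRA1 (-0.64) and CEP19 (-0.53), and ADAM23 (-0.38) against the mean of the other 3. The replicate block, the filter on dim genes, the mean of probe sets and fitting the compared arrays alone could not change these differences. They returned the main values and add nothing to the count. The genes were chosen for their falls with Dcp2 siRNA, so the shared sign is no support either. The count of genes with every Dcp2 array below all others was 7 without Dcp2 replicate 3 or DcpS replicate 2 and 6 without any other array and under each other setting that bears on it.

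The number of the 8 called among the other siRNAs was 0 in each of the 3 comparisons. In LOC550643 minus DcpS it was 1 with the replicate block (IGFBP5; 6.65% of all genes called), 1 with genes of mean 5 or more (14.3%), and 2 with the axis score (IRS4 and IGFBP5; 9.58%). In LOC550643 minus GAPDH it was 2 with genes of mean 5 or more (9.91%) and 3 with the axis score (SGPL1, IRS4 and LMBRD2, against 7.36%). It lay between 0 and 3 without each of the 6 arrays compared in turn. In DcpS minus GAPDH it was 1 with genes of mean 5 or more (13.2%) and 1 with only the arrays compared (LMBRD2, against 2.65%). It was 3 with the axis score (IGFBP5, LMBRD2 and CEP19, against 9.48%), and 0 without each of the 6 arrays compared in turn. The filter on dim genes tests fewer genes; the cause of the other changes was not tested. The block changed no other call among the 8.

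The 6 list genes called in Dcp2 minus non-silencing (1.98% of all genes) became 17 with genes of mean 5 or more (6.94%) and 9 with the replicate block (2.93%). They became 5 with the mean of probe sets (1.94%, TIMP3 lost) and 3 with the axis score (0.914%, with NOLC1, DCP2 and, newly, ADAM17). With only the arrays compared they were 2 (0.262%, NOLC1 and DCP2), and without each of the 6 arrays compared in turn 2 to 9.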
